A study of Mus musculus with 45 samples.

Results

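Among 45 Trp53-null mouse mammary tumours, 24 epithelial tumours were compared by their level of Pgr, the progesterone receptor gene. The 9 tumours with the lowest mean log2 value of Cdh1, Epcam and Esrp1 were set aside, because these 3 genes mark epithelial cells. The other 36 were ranked by the log2 value of Pgr, and the 12 highest (Pgr-high) were compared with the 12 lowest (Pgr-low). The groups were thus selected on measured values, those of Pgr and the 3 epithelial genes, and a difference between them says that a gene's level went with that of Pgr across tumours.

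Each tumour grew from a non-irradiated mammary fragment of a Trp53-null BALB/c donor in the inguinal fat pad of a wild-type BALB/c female host. Hosts were 10 weeks old and had been cleared of their own gland epithelium at 3 weeks. They had received, 3 days before the transplant, a sham procedure or 10, 30 or 80 cGy of silicon (Si) ions. All tumours shared the loss of Trp53, and only the hosts differed in treatment. Tumours were removed at 1 cm3 within 600 days of follow-up, and total RNA of the whole tumour, host stroma included, was hybridised to 1 array each. All values below are deposited log2 expression values per gene. In such bulk RNA, fewer cells of a type and less RNA per cell cannot be told apart.

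The progesterone receptor is a nuclear hormone receptor that binds DNA and changes transcription when progesterone is present. In the mammary gland, its gene is a classical target of the oestrogen receptor and marks the hormone-sensing luminal cells, which also carry Esr1 and Prlr. These cells pass the hormone signal on to neighbouring cells through secreted factors, such as the RANK ligand encoded by Tnfsf11 and the Wnt ligand encoded by Wnt4. Basal (myoepithelial) cells form the outer, contractile layer of the ducts and carry keratins 5 and 14 and the transcription factor p63.

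Both hormone receptors act through short DNA elements, so the promoter of Pgr and those of the genes that followed it most closely are shown here as context for the values. The windows are the 250 bases before the annotated start in RefSeq (build GRCm38.p6), written 5′ to 3′ on the gene's strand. Pgr lies at chr9:8899583-8899832 on the plus strand. Of the genes higher in Pgr-high tumours with a single window, the 4 shown had the smallest p for a slope on Pgr. They are Pcp4 at chr16:96467356-96467605 on the plus strand, Cxcl15 at chr5:90794284-90794533 on the plus strand, Cyp3a57 at chr5:145345019-145345268 on the plus strand and Itih2 at chr2:10130684-10130933 on the minus strand. Capitals mark the core motif of the oestrogen response element (GGTCA, or TGACC on the other strand) and that of the progesterone response element (AGAACA, or TGTTCT on the other strand).
Pgr: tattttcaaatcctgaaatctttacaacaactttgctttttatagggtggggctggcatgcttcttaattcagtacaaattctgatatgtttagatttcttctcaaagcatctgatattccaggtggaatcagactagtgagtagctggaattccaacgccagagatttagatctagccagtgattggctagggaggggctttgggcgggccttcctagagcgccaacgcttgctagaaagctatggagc
Pcp4: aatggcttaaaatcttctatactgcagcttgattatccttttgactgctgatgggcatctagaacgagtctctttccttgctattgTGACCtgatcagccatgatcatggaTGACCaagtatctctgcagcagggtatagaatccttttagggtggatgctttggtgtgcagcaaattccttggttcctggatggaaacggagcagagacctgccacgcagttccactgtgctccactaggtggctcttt
Cxcl15: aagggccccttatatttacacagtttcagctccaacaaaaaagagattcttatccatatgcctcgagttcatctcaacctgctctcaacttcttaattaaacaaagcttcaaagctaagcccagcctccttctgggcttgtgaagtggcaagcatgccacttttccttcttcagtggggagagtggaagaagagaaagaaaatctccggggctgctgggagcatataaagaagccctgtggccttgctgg
Cyp3a57: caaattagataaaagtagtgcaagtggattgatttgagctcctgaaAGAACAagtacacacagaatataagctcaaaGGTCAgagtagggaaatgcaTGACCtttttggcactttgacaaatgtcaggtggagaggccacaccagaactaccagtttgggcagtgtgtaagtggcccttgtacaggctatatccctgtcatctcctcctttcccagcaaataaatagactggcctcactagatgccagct
Itih2: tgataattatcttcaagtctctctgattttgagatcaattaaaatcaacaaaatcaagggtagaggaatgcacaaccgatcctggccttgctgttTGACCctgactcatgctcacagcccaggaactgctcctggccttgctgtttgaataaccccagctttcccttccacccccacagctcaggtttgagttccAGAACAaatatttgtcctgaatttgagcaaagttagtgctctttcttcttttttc
The Pgr and Cxcl15 windows held neither motif. The Pcp4 window held 2 oestrogen motifs, that of Cyp3a57 held 2 oestrogen motifs and 1 progesterone motif, and that of Itih2 held 1 of each. Such short motifs are common. An oestrogen motif stood in 35.2% of all 32851 windows and a progesterone motif in 16.1%. A match is a description of the letters and not evidence of binding.

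Pgr itself spanned a wide range, and its values, which chose the groups, are given as a description. In the Pgr-high tumours the lowest value was 6.05, the median 7.60 and the highest 9.17, with a mean of 7.54 ± 0.96 (SD, n = 12). In the Pgr-low tumours these were 3.46, 4.48 and 4.72, with a mean of 4.35 ± 0.43 (SD, n = 12). Every Pgr-low tumour lay below 5.67, the median of all values in the table. The 12 tumours between the groups had a mean of 5.29 ± 0.32 (SD). At the upper boundary the values were 6.05 just inside Pgr-high and 5.70 just outside, and at the lower one 4.72 just inside Pgr-low and 4.78 just outside. The lower boundary therefore fell within a continuous run of values.

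The mean of Cdh1, Epcam and Esrp1 was 10.58 ± 0.55 (SD, n = 12) in Pgr-high and 10.61 ± 0.83 (SD, n = 12) in Pgr-low tumours. In the 9 tumours set aside it was 6.11 ± 1.00 (SD). The highest of those stood at 8.10 and the lowest tumour kept at 8.66. Pgr was low in most of the tumours set aside (mean 4.45), and the highest of them, the tumour of sham host replicate 6, reached 6.11.

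**Figure D1:**
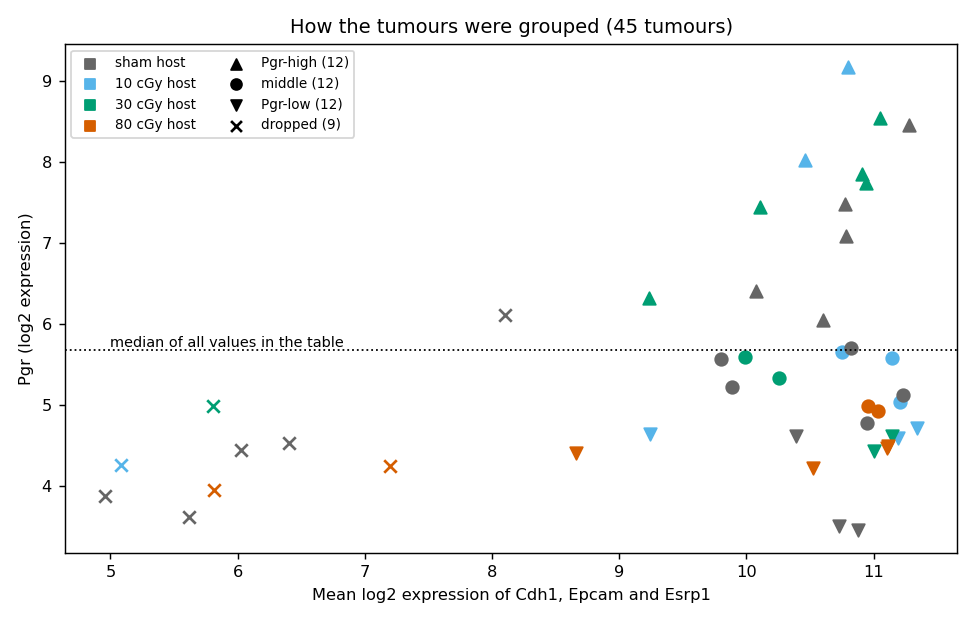
Log2 expression of Pgr (vertical axis) against the mean log2 expression of Cdh1, Epcam and Esrp1 (horizontal axis) in the 45 tumours, with colour for the host group and shape for the Pgr group. The 12 Pgr-high tumours lie at 6.05 or above and the 12 Pgr-low tumours at 4.72 or below, over a similar range of the epithelial mean.

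Both Pgr groups held tumours of sham and of Si-irradiated hosts. Of the Pgr-high tumours, 5 came from sham hosts, 2 from 10 cGy hosts and 5 from 30 cGy hosts. Of the Pgr-low tumours, 3 came from sham hosts, 3 from 10 cGy, 2 from 30 cGy and 4 from 80 cGy hosts. No tumour of an 80 cGy host was Pgr-high. Sham against Si hosts by Pgr group gave p = 0.667 (Fisher's exact test, two-sided). The split of 80 cGy against all other hosts, chosen after the counts were seen, gave p = 0.0932 (Fisher's exact test, two-sided).

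Some tumours stood apart in other ways. A list score below is the mean, over a list's tested genes, of each gene's log2 value minus its mean over the 45 tumours. Scores above 2 for skeletal muscle or fat, which are tissues around the gland, were seen in 2 Pgr-high and 4 Pgr-low tumours. The skeletal muscle score ran from -1.30 to 6.16 in Pgr-high and from -1.21 to 5.52 in Pgr-low tumours. On the first principal component of probe sets with no gene symbol, a measure of array-wide differences that the gene lists do not use, 8 Pgr-high and 2 Pgr-low tumours lay above 0. With that component as a covariate, an alternative chosen after the data were seen, 97 genes were higher and 30 lower in the comparison that follows.

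The comparison asked which other genes are at a different level in epithelial tumours with high and with low Pgr. Of 12119 genes tested with limma, 168 passed a Benjamini-Hochberg adjusted p of 0.05 (1.39%). Of these, 102 were higher in Pgr-high tumours (0.842%) and 66 were lower (0.545%). The higher genes differed more: 67 of them changed by 2-fold or more, against 17 of the lower ones. Without adjustment, 786 genes were higher and 1222 lower at p under 0.05, and the median difference over all genes was -0.04. When each array was centred on its median, 113 genes were higher and 36 lower, so the share of lower genes depended on the scaling.

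The tumours between the groups mostly had intermediate values. For 154 of the 168 genes (91.7%), the mean of the 12 middle tumours lay between the means of the Pgr-high and Pgr-low tumours, as it did for 40.6% of all genes tested. Those 12 tumours did not enter the test. The called genes were, however, selected for a wide gap between the Pgr-high and Pgr-low means, into which a middle mean falls easily. The 40.6% includes many genes with narrow gaps, so these shares are not a like comparison. For 64 of the 102 higher genes, all 12 Pgr-high tumours lay above the median of the Pgr-low tumours. For 38 of the 66 lower genes, all 12 lay below it. These genes were selected for a difference between the same tumours, so high shares are built in, and the share over all genes was not counted. Complete separation was rare: a single gene of the 12119 (0.00825%), Defb1, had groups that did not overlap.

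The count of genes rested on which tumours and covariates entered. With host group as a block, 8 genes were higher and 1 was lower, and without the 80 cGy tumours 2 were higher and 0 lower (limma; the higher ones were Defb1 and Ndp).

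Defb1 encodes beta-defensin 1, an antimicrobial peptide of epithelial surfaces. Its lowest, median and highest values were 6.56, 7.80 and 10.81 in Pgr-high tumours, and 3.47, 4.15 and 6.13 in Pgr-low tumours. All 12 Pgr-high tumours stood above every Pgr-low tumour. Of the Pgr-low tumours, 1 of 12 lay above 5.67, the median of all values in the table, so the low end is poorly measured and no fold is given. The difference on the log2 scale was 3.82 ± 0.48 (SE), with an adjusted p of 0.00029 (limma, Benjamini-Hochberg), the smallest of all genes. With host group as a block it was 3.66 (adjusted p = 0.0137).

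Fgfr2, a receptor for fibroblast growth factors that mammary epithelium needs to grow, was higher. Its values were 7.01, 9.46 and 11.23 (lowest, median, highest) in Pgr-high tumours and 4.86, 5.61 and 8.96 in Pgr-low tumours. The Pgr-low median lay below 5.67, so the low end of Fgfr2 is poorly measured. In Pgr-high, 9 of 12 tumours exceeded the highest Pgr-low tumour, which was that of sham host replicate 3. The difference was 3.11 ± 0.47 (SE; adjusted p = 0.00306), and it passed with the host block as well (3.00, adjusted p = 0.0137).

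A further set of genes was high in most Pgr-high tumours and at or near the Pgr-low level in a few. Pcp4, which encodes a calmodulin-binding peptide, had values of 5.54, 9.21 and 11.29 in Pgr-high and 4.67, 5.63 and 6.51 in Pgr-low tumours. Of the Pgr-high tumours, 10 of 12 exceeded all Pgr-low tumours, and the difference was 2.98 ± 0.51 (SE; adjusted p = 0.00452). The Pgr-low median of Pcp4, 5.63, lay just below 5.67, so its low end is poorly measured. Cxcl15, a chemokine gene, had values of 3.08, 7.39 and 10.01 in Pgr-high and of 3.02, 3.56 and 4.03 in Pgr-low tumours. The difference for Cxcl15 was 3.50 ± 0.66 (SE; adjusted p = 0.0144), with 10 of 12 Pgr-high tumours above every Pgr-low one. All 12 Pgr-low values lay below 5.67, so the gene was kept only through 9 Pgr-high tumours and 1 middle tumour, and its low end was not measured.

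Cyp3a57, of a family of drug- and steroid-oxidising enzymes, had values of 3.35, 7.17 and 10.08 in Pgr-high and 3.10, 3.64 and 3.97 in Pgr-low tumours (difference 3.28 ± 0.66 SE, adjusted p = 0.0215). It too was above 5.67 in 0 Pgr-low, 1 middle and 9 Pgr-high tumours, and Tfap2b, below, in 0 Pgr-low tumours. Mouse Cyp3a genes are close in sequence, so its probe set may also read related genes. Itih2, which encodes a hyaluronan-binding serum protein, differed by 2.83 ± 0.59 (SE; adjusted p = 0.0257). Its Pgr-low median was 4.95, below 5.67, so its low end is poorly measured. Tfap2b, an AP-2 transcription factor, differed by 3.00 ± 0.48 (adjusted p = 0.00306), and Tlcd4, a membrane protein gene, by 3.08 ± 0.67 (adjusted p = 0.0258). Agtr1a, the type 1 angiotensin II receptor, was 6.93-fold higher, with values of 6.62, 9.42 and 11.43 in Pgr-high and 5.79, 6.31 and 7.95 in Pgr-low tumours (difference 2.79 ± 0.43 SE, adjusted p = 0.00306). Agtr1a is named for its slope on Pgr, given below.

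The same 2 Pgr-high tumours fell outside this pattern. The tumour of 10 cGy host replicate 8, with Pgr at 8.02, had Pcp4 at 5.54, Cxcl15 at 3.12, Cyp3a57 at 3.35, Itih2 at 4.39, Tlcd4 at 4.72 and Tfap2b at 3.30. The tumour of sham host replicate 4, with the lowest Pgr of the group at 6.05, had Pcp4 at 5.77, Cxcl15 at 3.08, Cyp3a57 at 3.36, Itih2 at 4.64, Tlcd4 at 5.19 and Tfap2b at 3.94. These values lay within the range of the Pgr-low tumours or, for Tlcd4 and Tfap2b of 10 cGy replicate 8, at or below its lower end. Their Krt5 was high, at 12.86 and 12.36. Of the other 10 Pgr-high tumours, that of sham host replicate 9 came closest to them, with Cyp3a57 at 3.66, Itih2 at 5.80 and Tlcd4 at 7.36, also within the Pgr-low range.

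**Figure D2:**
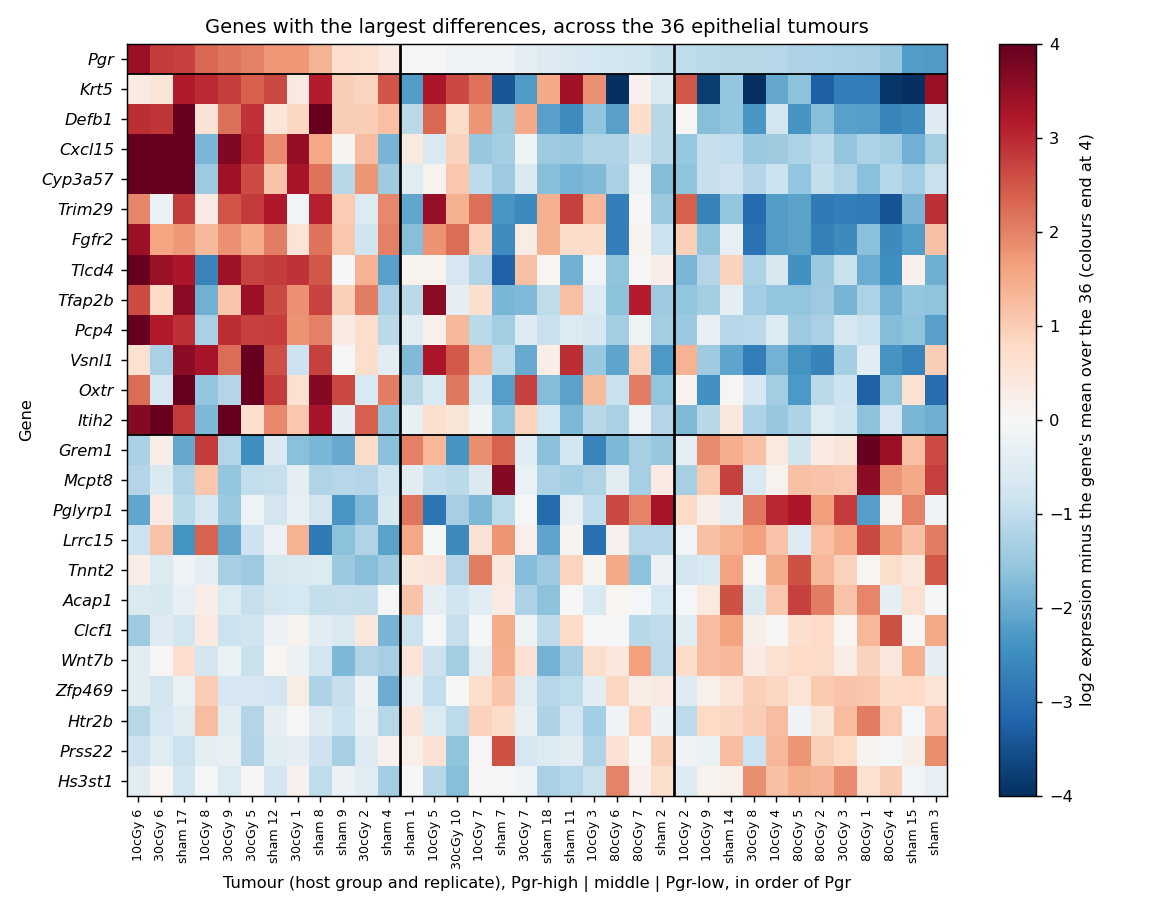
Log2 expression minus each gene's mean over the 36 epithelial tumours for Pgr and the 12 genes with the largest called difference in each direction (rows), with tumours in order of Pgr (columns) and black lines between Pgr-high, middle and Pgr-low. Colours end at 4 log2 units either way, and the fourth and twelfth columns, 10 cGy replicate 8 and sham replicate 4, show low Cxcl15, Cyp3a57, Pcp4, Itih2, Tlcd4 and Tfap2b beside high Krt5.

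A slope of each gene on the log2 value of Pgr over all 36 epithelial tumours used the middle tumours too. It shared its tumours and the Pgr values with the group comparison and is another view of the same data. It called 62 genes (0.512%), 61 rising with Pgr and 1 falling, and 34 of the 62 were also called between the groups. The closest were Pcp4, with a slope of 0.99 ± 0.10 (SE), and Agtr1a, with 0.91 ± 0.09, both at an adjusted p of 1.72e-08 (limma, Benjamini-Hochberg). Fitted over the 36 tumours, they rose by nearly 1 log2 unit for each log2 unit of Pgr. In middle and Pgr-low tumours Pgr was at most 5.70, close to or below the table median of 5.67, and poorly measured. The slopes thus rest mainly on Pgr-high tumours against the rest. Means in Pgr-high, middle and Pgr-low tumours were 8.63, 6.26 and 5.65 for Pcp4 and 9.27, 6.86 and 6.48 for Agtr1a. Cxcl15 rose by 1.19 ± 0.13 (adjusted p = 8.38e-08) and Cyp3a57 by 1.15 ± 0.13 (adjusted p = 4.83e-07). Next came Gipc2 (0.86 ± 0.11), Cited1 (0.82 ± 0.10), Defb1 (1.11 ± 0.15), Itih2 (0.93 ± 0.13) and Msx2, a homeobox gene (0.56 ± 0.08). Means of Gipc2 were 7.22 in Pgr-high, 4.87 in middle and 4.88 in Pgr-low tumours, and those of Msx2 were 6.12, 4.92 and 4.35. Outside Pgr-high tumours both means lay below 5.67, so the low end of each gene is poorly measured. Krt5 did not pass as a slope (0.93 ± 0.26, adjusted p = 0.106).

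Among hormone receptors, 0 of 10 tested genes passed in either direction, which with 1.39% of all genes called is no result about so short a list (limma; 2 were higher and 1 lower at an unadjusted p under 0.05). Esr1, the oestrogen receptor gene and one of the markers of hormone-sensing cells, had lowest, median and highest values of 5.81, 7.34 and 8.65 in Pgr-high and of 5.34, 6.37 and 7.39 in Pgr-low tumours. The groups overlapped, with 5 of 12 Pgr-high tumours above every Pgr-low one. The difference of 0.99 ± 0.28 (SE) missed the threshold (adjusted p = 0.0717). It was 1.41 among tumours of Si hosts and 0.09 among those of sham hosts, and the test of that kind of difference, described below, called no gene. The mineralocorticoid receptor gene Nr3c2 differed by 0.92 ± 0.26 (adjusted p = 0.0741) and the retinoic acid receptor gene Rara by -0.42 ± 0.13 (adjusted p = 0.0998). Prlr, the prolactin receptor gene and the other marker, had no probe set with its symbol alone and was not analysed here. The label progesterone-receptor-high thus rests on Pgr RNA alone.

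Of the list of hormone-sensing luminal genes, 2 of 13 tested were higher, against 0.842% of all genes, and 0 lower, with a median difference of 0.66 against -0.04 over all genes. Cited1, a transcriptional co-regulator found in hormone receptor-positive mammary cells, had values of 5.69, 8.24 and 10.40 in Pgr-high and 4.88, 5.53 and 7.60 in Pgr-low tumours. All 12 Pgr-high tumours lay above the Pgr-low median, and the difference was 2.59 ± 0.43 (SE; adjusted p = 0.00394). That median lay below 5.67, so the low end of Cited1 is poorly measured. Stc2, a secreted glycoprotein and known oestrogen target, had values of 7.06, 9.38 and 10.71 in Pgr-high and 6.10, 6.52 and 8.38 in Pgr-low tumours. It was 4.62-fold higher (difference 2.21 ± 0.38 SE, adjusted p = 0.00615). For both genes, 8 of 12 Pgr-high tumours exceeded every Pgr-low tumour.

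Other genes of that list did not pass. Foxa1, the factor that opens chromatin for the oestrogen receptor, differed by 2.07 ± 0.55 (SE; adjusted p = 0.0556), with values of 6.12, 8.59 and 10.19 in Pgr-high and 4.64, 6.32 and 8.58 in Pgr-low tumours. Its slope on Pgr over 36 tumours passed (0.77 ± 0.15, adjusted p = 0.00279). Myb differed by 1.31 ± 0.37 (adjusted p = 0.0713), and Gata3, a master regulator of luminal fate, by 0.66 ± 0.35 (adjusted p = 0.344). Xbp1, a factor of secretory cells, had a difference of -0.48 ± 0.14 (adjusted p = 0.0741). Of 16 oestrogen target genes tested, Stc2 was the only one past the threshold, and the median of that list was 0.03. Stc2 stands in both lists.

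The list of genes linked to progesterone action held secreted factors such as Wnt4 and Tnfsf11, but also intracellular ones such as Fkbp5 and Ccnd1. It showed 0 calls among 13 tested, again at the 1.39% background of all genes (limma, with 3 higher and 0 lower at an unadjusted p under 0.05). Wnt4 differed by 0.97 ± 0.27 (SE; adjusted p = 0.0708), with values of 5.87, 6.76 and 7.45 in Pgr-high and of 5.02, 5.50 and 7.61 in Pgr-low tumours. All 12 Pgr-high tumours lay above the Pgr-low median for Wnt4, while the highest value of all belonged to the Pgr-low tumour of sham host replicate 3. Id4, a regulator of mammary basal and luminal fate, differed by 2.02 ± 0.53 (adjusted p = 0.0512). Rspo1, a Wnt-enhancing secreted factor, differed by 1.71 ± 0.70 (adjusted p = 0.223), and the tumour with its highest value, 12.11, was the Pgr-low tumour of 10 cGy host replicate 2. Tnfsf11 differed by 0.20 ± 0.35 (adjusted p = 0.823), a difference smaller than its standard error. Areg, the amphiregulin gene, and Calca were not analysed here.

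Prolactin and growth hormone signalling showed 0 calls among 12 tested genes (limma; 0 were higher and 3 lower at an unadjusted p under 0.05). Socs2, a feedback inhibitor that these hormones induce through STAT5, had the largest difference, -1.43 ± 0.38 (SE; adjusted p = 0.0579). All 12 Pgr-high tumours lay below the Pgr-low median of 10.70 for Socs2. Milk genes, of which 0 of 14 passed, had a median difference of 0.51. With 1.39% of all genes called, 0 calls in lists this short is no result about their members. Csn2, beta-casein, ranged from 8.01 to 13.30 in Pgr-high and from 5.79 to 13.23 in Pgr-low tumours. The groups overlapped, with 4 of the 12 Pgr-low tumours below every Pgr-high one.

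**Figure D3:**
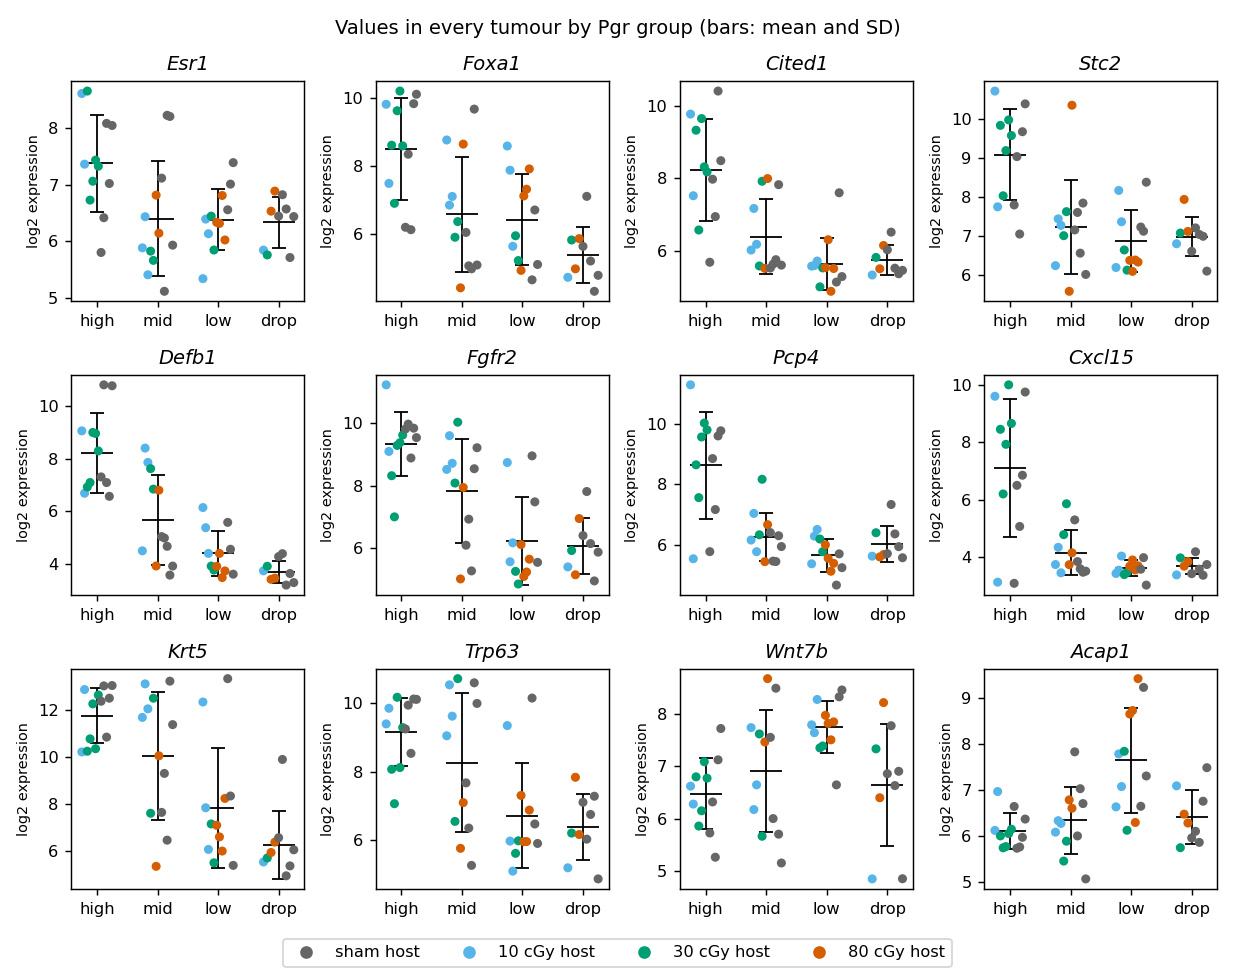
Log2 expression of 12 genes in every tumour, in the columns Pgr-high (12 tumours), middle (12), Pgr-low (12) and the tumours set aside (9), with colour for the host group and bars for mean and SD. Defb1 does not overlap between Pgr-high and Pgr-low, and Cxcl15 and Pcp4 show 2 Pgr-high tumours at the Pgr-low level. Krt5 shows 2 and Trp63 3 Pgr-low tumours above the lowest Pgr-high tumour.

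Basal and myoepithelial genes formed the list with the most calls, 7 of 20 tested higher, against 0.842% of all genes, and 0 lower, against 0.545%, with a median difference of 1.25 against -0.04 over all genes. Krt5, a basal keratin, had the largest difference of all genes, 3.94 ± 0.76 (SE), or 15.3-fold (adjusted p = 0.0186). Its values were 10.20, 12.30 and 13.03 in Pgr-high and 5.37, 7.11 and 13.32 in Pgr-low tumours. No Pgr-high tumour lay below 10, while 10 of the 12 Pgr-low tumours lay between 5.37 and 8.32. The other Pgr-low tumours, of 10 cGy host replicate 2 and sham host replicate 3, had Krt5 at 12.33 and 13.32.

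Trp63, which encodes p63, the transcription factor of basal cells, had values of 7.07, 9.35 and 10.18 in Pgr-high and of 5.10, 5.98 and 10.16 in Pgr-low tumours (difference 2.44 ± 0.50 SE, adjusted p = 0.0215). Again 10 cGy replicate 2 (9.35) and sham replicate 3 (10.16) were the highest of the Pgr-low group, and 80 cGy replicate 1 (7.31) also exceeded the lowest Pgr-high tumour. Col17a1, a hemidesmosome collagen, differed by 2.31 ± 0.51 (adjusted p = 0.0258), and Trim29, a gene of basal and squamous epithelium outside the list, by 3.23 ± 0.68 (adjusted p = 0.0258). The Pgr-low median of Col17a1 was 5.63, below 5.67, so its low end is poorly measured.

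The other called genes of the list were Oxtr, Myh11, Cnn1 and Acta2. Oxtr, the oxytocin receptor through which myoepithelial cells contract, differed by 2.85 ± 0.67 (SE; adjusted p = 0.0359), Myh11 by 2.27 ± 0.53 (adjusted p = 0.0357), Cnn1 by 2.22 ± 0.56 (adjusted p = 0.0467) and Acta2 by 0.86 ± 0.20 (adjusted p = 0.0359). Acta2, smooth muscle actin, was at a high level in both groups, from 11.66 to 13.34 in Pgr-high and from 10.97 to 12.67 in Pgr-low tumours. Krt14, the partner keratin of Krt5, did not pass (1.48 ± 0.61, adjusted p = 0.232). Smooth muscle of vessels also carries Myh11, Cnn1 and Acta2, and its part in their differences was not tested. Of 13 endothelial genes 0 passed, beside 1.39% of all genes. Their differences were negative for 12 and positive for 1, Vwf (0.63 ± 0.25, adjusted p = 0.214). The endothelial score ran from -1.30 to 1.01 in Pgr-high and from -1.04 to 0.80 in Pgr-low tumours.

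The basal score ran from -0.29 to 2.05 in Pgr-high tumours, with a median of 1.08, and from -1.07 to 1.41 in Pgr-low tumours, with a median of -0.59. With this score as a covariate, an alternative chosen after the data were seen, 4 genes were higher and 11 lower. The difference for Krt5 was then 1.29 (adjusted p = 0.357) and that for Trp63 0.55 (adjusted p = 0.411), and both genes are members of the score. Trim29 and Vsnl1, which are not, fell to 0.87 (adjusted p = 0.516) and 0.84 (adjusted p = 0.564). Vsnl1 had a Pgr-low median of 5.31, below 5.67, so its low end is poorly measured. Differences of the genes closest to Pgr kept their size: Pcp4 stood at 3.24 (adjusted p = 0.0457), Agtr1a at 2.90 (adjusted p = 0.0384), Cxcl15 at 3.78 (adjusted p = 0.0852) and Cited1 at 2.35 (adjusted p = 0.0953). Defb1 stood at 2.88 (adjusted p = 0.0384) and Fgfr2 at 1.77 (adjusted p = 0.114).

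**Figure D4:**
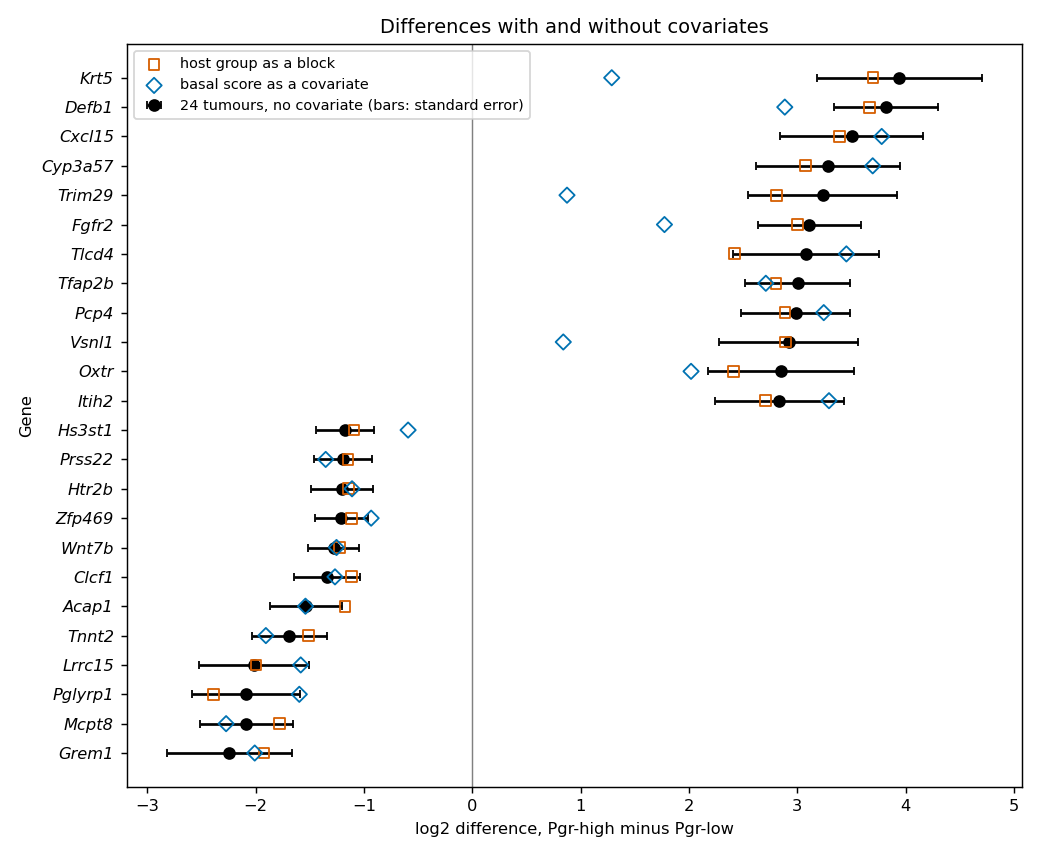
Log2 difference, Pgr-high minus Pgr-low, for the 12 genes with the largest called difference in each direction, from 24 tumours without covariates (filled circles, bars are standard errors), with host group as a block (squares) and with the basal score as a covariate (diamonds). The host block leaves Krt5 at 3.70 and Defb1 at 3.66, and the basal score takes Krt5 to 1.29 while Cxcl15 stays at 3.78.

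Luminal epithelial genes showed 0 calls among 18 tested, not distinguishable from the 1.39% of all genes (limma; 2 were higher and 1 lower at an unadjusted p under 0.05), with a median difference of -0.15. The squamous list had 0 of 11 called and a median of 0.54. Its gene with the smallest p, Sprr1a, differed by 2.68 ± 0.72 (SE; adjusted p = 0.0594), and its highest value, 13.18, was again that of the Pgr-low tumour of sham host replicate 3, whose squamous score was 4.93. Cell cycle genes had 0 of 22 called and a median of -0.10. For the squamous and cell cycle lists too, 0 calls is not distinguishable from the 1.39% of all genes.

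Among genes lower in Pgr-high tumours, Wnt7b, a Wnt ligand of epithelial cells, had values of 5.26, 6.47 and 7.73 in Pgr-high and 6.65, 7.81 and 8.46 in Pgr-low tumours. All 12 Pgr-high tumours lay below the Pgr-low median and 7 lay below every Pgr-low tumour. The difference was -1.28 ± 0.24 (SE; adjusted p = 0.0119). Of 20 Wnt pathway genes tested, beside 0.545% of all genes called lower and 0.842% higher, Wnt7b and Wnt2b (-1.12 ± 0.26, adjusted p = 0.0312) were lower, and the secreted Wnt inhibitor Wif1 was higher (2.35 ± 0.61, adjusted p = 0.049). In Pgr-high tumours Wnt2b had a median of 5.40, below 5.67, so its low end is poorly measured. The same holds for Wif1 in Pgr-low tumours, where its median was 5.18. The list's median was 0.28.

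The TGF-beta list had 2 of 14 genes lower, against 0.545% of all genes, and 0 higher, with a median of -0.34. Smad7, an inhibitor induced by TGF-beta, differed by -0.83 ± 0.18 (SE; adjusted p = 0.0258), and Skil, another induced inhibitor, by -0.53 ± 0.13 (adjusted p = 0.0423). For Smad7, 9 of 12 Pgr-high tumours lay below every Pgr-low tumour. Grem1, a secreted antagonist of bone morphogenetic proteins made mainly by fibroblasts, was lower, with a difference of -2.24 ± 0.57 (adjusted p = 0.048). In Pgr-high tumours its lowest value was 4.84 and its median 5.80, close to 5.67, the median of all values in the table. The low end of Grem1 is thus poorly measured and no fold is given. Lrrc15, a gene of activated fibroblasts, differed by -2.01 ± 0.51 (adjusted p = 0.0464), with values of 6.05, 7.86 and 11.26 in Pgr-high and 8.33, 10.19 and 11.52 in Pgr-low tumours. The fibroblast and matrix list had 0 of 15 genes called, beside 1.39% of all genes, and a median of -0.69. Of its genes 13 had negative differences, 4 at an unadjusted p under 0.05 (limma). Its score ran from -1.83 to 1.13 in Pgr-high and from -1.04 to 1.37 in Pgr-low tumours, and the part of the stromal content in Grem1 and Lrrc15 was not tested.

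Other named lower genes were Mcpt8, Pglyrp1 and Acap1. Mcpt8, a protease of basophils, differed by -2.09 ± 0.43 (SE; adjusted p = 0.0215), Pglyrp1, a bacterial peptidoglycan-binding protein of neutrophils, by -2.09 ± 0.50 (adjusted p = 0.0359), and Acap1, a trafficking regulator, by -1.54 ± 0.33 (adjusted p = 0.0258). Mcpt8 passed the filter, set at 5.67, mainly through Pgr-low tumours. Its median was 3.57 in Pgr-high and 5.80 in Pgr-low tumours, so its low end is poorly measured. For Acap1, the Pgr-high values of 5.74 to 6.97 lay in a narrow band while the Pgr-low values ran from 6.13 to 9.43. For that gene 8 of 12 Pgr-high tumours lay below all Pgr-low ones. Of 12 neutrophil genes 0 passed, beside 1.39% of all genes. All 12 had negative differences, 7 of them at an unadjusted p under 0.05 (limma), with a median of -1.14. The neutrophil score ran from -1.89 to 1.70 in Pgr-high and from -1.75 to 2.65 in Pgr-low tumours. The highest Pgr-high score, 1.70, belonged to 10 cGy replicate 8. Inflammatory genes likewise had 0 of 12 called and 12 negative differences, with a median of -0.68, and macrophage genes 0 of 16 called and 15 negative. Over all genes tested, 57.8% had a negative difference. Most other immune lists, also with 0 called, had mainly positive differences. These were 6 of 7 T cell genes, 5 of 6 NK and cytotoxic genes, 6 of 7 mast cell genes and 6 of 8 dendritic and MHC class II genes. Of 4 B and plasma cell genes, with 0 called, 1 difference was positive and 3 were negative. The part of immune cells in Mcpt8, Pglyrp1 and Acap1 was not tested.

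The remaining lower genes named by size were of several kinds. They were Tnnt2, the cardiac form of troponin T (-1.69 ± 0.34 SE, adjusted p = 0.0215), Clcf1, a cytokine of the interleukin-6 family (-1.34 ± 0.31, adjusted p = 0.0307), Zfp469 (-1.21 ± 0.24, adjusted p = 0.0215), Htr2b, a serotonin receptor (-1.20 ± 0.29, adjusted p = 0.0359), Prss22, a serine protease (-1.19 ± 0.27, adjusted p = 0.0269), and Hs3st1, a heparan sulphate sulfotransferase (-1.17 ± 0.27, adjusted p = 0.0307). In Pgr-high tumours Htr2b had a median of 4.83 and Prss22 one of 5.64, both below 5.67, so their low ends are poorly measured. Skeletal muscle genes had a median difference of -1.64 with 0 of 10 called, beside 1.39% of all genes. Muscle scores above 2 were found in 1 Pgr-high and 4 Pgr-low tumours. Without the tumours scoring above 2 for muscle or fat, 34 genes were higher and 21 lower.

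**Figure D5:**
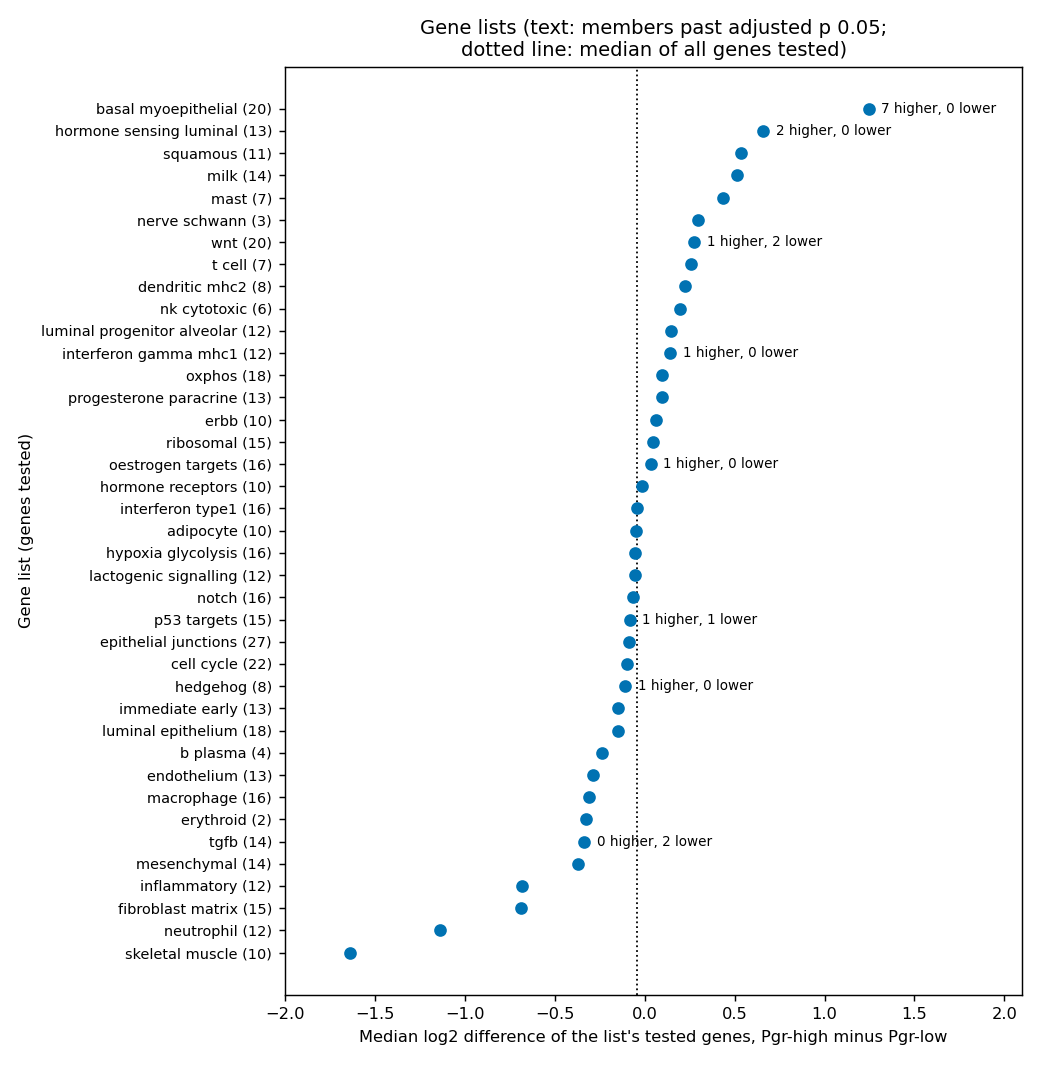
Median log2 difference, Pgr-high minus Pgr-low, over the tested genes of each of the 39 lists (number of genes tested in brackets), with the number called higher and lower printed where any passed an adjusted p of 0.05. The dotted line is the median of all genes, -0.04, with basal and myoepithelial genes at 1.25 at the upper end and skeletal muscle genes at -1.64 at the lower end.

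Whether the contrast depended on host irradiation was tested as an interaction, the difference among tumours of Si hosts minus that among tumours of sham hosts. It called 0 of 12119 genes (0%; limma, Benjamini-Hochberg, smallest adjusted p = 0.561), and 809 genes had an unadjusted p under 0.05. The genes with the smallest p were Sowahc (1.38 ± 0.28 SE), Foxred2 (-1.74 ± 0.37), Rem2 (-2.23 ± 0.52), Glul (2.16 ± 0.52) and Kcnj15 (2.06 ± 0.50), and none passed. The leading genes had the same direction in both kinds of host: Defb1 differed by 3.66 among Si hosts and 3.94 among sham hosts, Pcp4 by 3.12 and 3.03, Cited1 by 2.96 and 1.89, and Krt5 by 3.91 and 3.34. These genes were named for a difference over the same tumours, so a shared direction is largely built in. With 5 Pgr-high and 3 Pgr-low tumours from sham hosts, only large differences between hosts could have been seen.

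Over all called genes with a RefSeq promoter window, the share with a hormone motif can be set against the genes tested. An oestrogen motif was found for 29 of 71 higher genes (40.8%) and 17 of 46 lower genes (37.0%), beside 37.2% of 9654 genes tested. A progesterone motif was found for 12 of 71 higher genes (16.9%) and 12 of 46 lower genes (26.1%), beside 13.0% of the genes tested. A gene was counted if any of its windows held the motif. Absence of a match in 250 bases says nothing about sites elsewhere.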

How the data were processed

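The authors deposited log2 expression values per probe set of an Affymetrix mouse array, made with RMA and oligo per the submitters' processing notes (their versions: not given in the sources used here). RMA quantile-normalizes arrays, so a shift of most genes at once cannot be seen. The table held 35556 probe sets. The platform annotation paired 21218 of them with 1 symbol, 1881 with several and 12457 with none. Each of 18820 genes was represented by its probe set with the highest mean. Genes were kept that exceeded the table's median, 5.67, in at least 8 tumours: this left 12123, and Pgr, Cdh1, Epcam and Esrp1, used by the grouping, were not tested. Genes at low values in most tumours pass this filter only through the group where they are high.

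Groups came from the sample titles and the Pgr ranks. The tool was limma 3.58.1 under R 4.3.3 (lmFit, eBayes, two-sided, no covariate, 24 tumours) with Benjamini-Hochberg adjustment over 12119 genes at 0.05. Errors with ± are standard errors unless marked SD. Other fits used host group, epithelial mean, list scores or Pgr itself as terms. The tests were tried on simulated data. The precision is limited by the number of arrays. The labels do not say which tumours shared a donor or host; 2 pairs of Pgr-high tumours shared the stem of their sample code (30 cGy replicates 5 and 6, sham replicates 8 and 9), so p-values measure the spread between tumours as given. With the stem as a random block 58 genes were higher and 26 lower.

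The 39 gene lists (590 genes, 470 tested, 70 dim, 50 without a single-symbol probe set), like the grouping itself, were chosen with earlier results of these data known. Named are the 12 largest called differences on each side, hormone-related list members, up to 4 members with the smallest p of other lists and the 5 genes with the smallest interaction p; Agtr1a, Gipc2, Msx2, Ndp, Cnn1, Acta2 and Krt14, and the tumours and members singled out by their values, were chosen after values were seen. Promoter windows were matched by symbol for 9654 of the genes tested.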

Additional observations from a re-analysis of the deposited data

Results flagged for a closer look

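Within host groups of up to 10 tumours, the mean of Cdh1, Epcam and Esrp1 had 1 tumour far below the rest in 2 groups: 5.08 in the 10 cGy group (replicate 1) and 5.81 in the 30 cGy group (replicate 4). Both tumours were set aside by the grouping rule and entered no comparison. Each gap was larger than Dixon's test allows, which chance exceeds in about 1 of 20 groups, and 12 combinations of group and measure were looked at. The same measure had set these tumours aside, so that rate does not apply to them and the gaps are a description only.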

How the results depend on the processing

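The counts of called genes (102 higher, 66 lower) moved widely. Higher and lower calls were 57 and 38 for genes above the table median in at least 22 tumours, 45 and 16 in a fit of 36 tumours as 3 groups, 61 and 1 as a slope on Pgr, 8 and 3 for the top 18 against the bottom 18, 234 and 215 with no tumour set aside, and 390 and 518 with array weights. They were 8 and 1 with host group as a block, 58 and 26 with the code stem as a random block, 34 and 21 without tumours scoring above 2 for muscle or fat, and 11 and 2 in Si hosts only. The count of higher genes alone moved to 183 for the top 9 against the bottom 9, 59 with 13 tumours set aside and 19 in sham hosts only. That of lower genes alone moved to 42 without a filter, 36 with arrays centred on their median, 160 with the epithelial mean as a covariate and 30 with the component of unnamed probe sets as a covariate. Among alternatives chosen after seeing the data, tumours below 0 on that component gave 49 and 1, those above 0 gave 1 and 1, leaving out the 80 cGy tumours gave 2 and 0, and the basal score as a covariate gave 4 and 11. The smaller comparisons have fewer tumours; otherwise the cause was not tested. Over 77 named genes and all alternatives, 1169 of 1759 values kept direction and side of the threshold, 517 no longer passed, 68 newly passed and 5 reversed: Tnfsf11 in sham hosts only (-0.20), above 0 on the component (-0.92) and with the basal score (-0.13), Cnn1 above 0 on the component (-0.22) and Krt14 with the basal score (-0.61). Defb1 passed in 20 of 22 alternatives, Agtr1a in 20 of 23, Pcp4 in 18, Fgfr2 and Cited1 in 17, Krt5 in 13 and Grem1 in 5. Sizes moved too: from 2.88 to 4.38 for Defb1, 1.29 to 4.91 for Krt5, 0.84 to 4.99 for Vsnl1, 0.87 to 3.97 for Trim29, -4.08 to -0.69 for Grem1, -2.67 to -0.16 for Pglyrp1 and -1.77 to -0.28 for Prss22. The interaction with host called 0 genes in all 3 alternatives. No paired analysis was possible because the Pgr groups cut across host groups, within which replicate numbers only count tumours.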

Other observations

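Further genes chosen after their values were seen were higher in Pgr-high tumours. Ptn, which encodes the secreted growth factor pleiotrophin, had lowest, median and highest values of 7.31, 8.77 and 10.25 in Pgr-high and of 5.93, 6.58 and 7.87 in Pgr-low tumours (difference 2.05 ± 0.34 SE, adjusted p = 0.00361, limma, Benjamini-Hochberg). Of 12 Pgr-high tumours, 9 exceeded every Pgr-low one. Prelp, a matrix proteoglycan, differed by 1.95 ± 0.36 (adjusted p = 0.0115), and Ndp, which encodes norrin, a secreted ligand of the Wnt receptor Frizzled-4, by 1.53 ± 0.24 (adjusted p = 0.00306). Gabbr1, a subunit of the GABA-B receptor, was higher (0.95 ± 0.15, adjusted p = 0.00306). Hdgf, a growth factor gene, had a small but tight difference of -0.43 ± 0.08 (adjusted p = 0.0128): its values were 9.91 to 10.38 in Pgr-high and 10.26 to 10.96 in Pgr-low tumours. Prelp, Ndp, Gabbr1 and Hdgf also passed with host group as a block.

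Single genes of other lists passed as well, beside 0.842% of all genes called higher and 0.545% lower. The Hedgehog co-receptor gene Boc differed by 1.00 ± 0.24 (adjusted p = 0.0359; 1 of 8 genes called), and Psmb9, an immunoproteasome subunit, by 0.83 ± 0.21 (adjusted p = 0.0476; 1 of 12). Of 15 p53 target genes, Sesn1 was higher (0.52 ± 0.12, adjusted p = 0.0269) and Tnfrsf10b, a death receptor, was lower (-0.66 ± 0.16, adjusted p = 0.0418), in tumours that all lack Trp53.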
